A study of Homo sapiens with 24 samples.

Results

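The genes described here encode the proteins of the cytosolic ribosome. They were taken by symbol, as RPL, RPS or RPLP followed by a number (with an optional A or X), or RPSA, which leaves out pseudogenes and the RPS6K kinases. The symbol rule found 77 of the 24053 rows of the table, 46 of the large subunit and 31 of the small subunit and used no measured value itself, although the set was proposed with earlier results of these data known. RNA was sequenced from ARPE-19, an established human cell line derived from retinal pigment epithelium, after treatment with 1 of 4 siRNA preparations. The groups were a scramble siRNA control, Pink1 siRNA, Nrf2 siRNA, and Nrf2 and Pink1 siRNA together (called the double siRNA here). Each of the 4 groups held 3 biological replicates with 2 technical replicates each. All groups are 1 cell line treated with siRNA, so the controls carry a scramble siRNA and are not untreated cells. The sample labels call the treated groups knockout or KD, whereas the design text speaks of siRNA. A scratch wound appears in the labelled protocols, and it is not stated if RNA was taken from scratched cells. Nothing states that the biological replicates came from separate cultures, so a p-value here measures the spread between these samples. Expression was given as TPM, a transcript abundance that is divided by transcript length and scaled to the same total in every sample. TPM holds no read number, so the depth behind each value is unknown.

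The cytosolic ribosome translates nuclear-encoded mRNA and is built from a small subunit, which reads the mRNA, and a large subunit, which forms the peptide bond. Its proteins are made in balanced amounts, and many of their mRNAs begin with a C followed by a run of pyrimidines, the terminal oligopyrimidine (TOP) tract, through which the kinase mTORC1 and the RNA-binding protein LARP1 control their translation and stability. PINK1 is the kinase that marks damaged mitochondria for removal, and NRF2 (gene NFE2L2) is a transcription factor of the antioxidant response.

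Both siRNA targets were lower where they were targeted. PINK1 was at 55.8 ± 1.93 TPM (SD, n = 3) with scramble, 14.6 ± 3.22 with Pink1 siRNA, 57.2 ± 8.35 with Nrf2 siRNA and 18.7 ± 2.93 with the double siRNA. NFE2L2 was at 80.7 ± 7.69, 68.7 ± 4.02, 20.0 ± 7.73 and 28.9 ± 6.16 TPM in the same order. The adjusted p (limma, Benjamini-Hochberg over the 13810 genes tested) against scramble was 0.00056 and 0.00301 for PINK1 in the Pink1 and double groups, and 0.00523 and 0.0212 for NFE2L2 in the Nrf2 and double groups. All 10 listed retinal pigment epithelium markers were found, with a summed level of 1730 to 1970, 1550 to 2200, 1350 to 1640 and 1720 to 2020 TPM over the samples of the 4 groups in that order. Of these, KRT8 and KRT18 were the most abundant, and RPE65, the visual cycle isomerase, averaged 0.107 TPM. TYR and TYRP1, both of melanin synthesis, rose in all 3 siRNA groups, for example TYRP1 by 2.09 on the log2 scale with Pink1 siRNA (adjusted p 0.00056, limma). Of the 9 markers tested, 6 were higher and 3 lower than scramble in each siRNA group. KRT18 was called lower with Nrf2 siRNA in a fit without the most abundant row of the table (log2 -0.55, adjusted p 0.0436, limma). Of the markers of other cells, the summed blood list (2 of 4 found, nearly all CD68) spanned 19.2 to 37.9 TPM with scramble, 25.3 to 30.9 with Pink1 siRNA, 42.3 to 105 with Nrf2 siRNA and 34.1 to 52.5 with the double siRNA, and PTPRC averaged 0.0642 TPM. The endothelial list (2 of 4) stayed at or under 2.47 TPM, the neural and photoreceptor list (2 of 5) at or under 1.22 TPM and the fibroblast list (3 of 4) at or under 65.5 TPM in every sample. The part of these markers in the ribosomal protein values was not tested.

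The annotated starts of the ribosomal protein genes carried the TOP tract more often than those of other genes. The windows of 6 members are shown: the P-stalk genes and RPSA, among them RPLP0, the 1 member called against scramble as deposited, and RPL39 and RPS26, which lay at the other end with the double siRNA. Each window is 30 bases from RefSeq on GRCh38.p14, 15 before the annotated start and 15 from it on, read 5′ to 3′ on the gene's strand. Capitals mark the run of C and T that begins with the C of the start. The authors' notes name GRCh37 and hg19, so these positions are RefSeq's and not those of the deposited table.
RPLP0: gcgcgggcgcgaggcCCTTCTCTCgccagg
RPLP1: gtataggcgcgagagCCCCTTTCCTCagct
RPLP2: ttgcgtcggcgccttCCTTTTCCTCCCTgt
RPSA: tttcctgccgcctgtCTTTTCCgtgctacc
RPL39: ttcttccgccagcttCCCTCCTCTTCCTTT
RPS26: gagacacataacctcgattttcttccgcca
The windows lie at chr12:120201097-120201126 (minus strand) for RPLP0, chr15:69452803-69452832 (plus) for RPLP1, chr11:809952-809981 (plus) for RPLP2, chr3:39406705-39406734 (plus) for RPSA, chrX:119791616-119791645 (minus) for RPL39 and chr12:56041903-56041932 (plus) for RPS26. The last 15 bases of each are the first bases of the annotated first exon, within the 5′ UTR. RPL39 has the longest run of all members, 19 pyrimidines, of which the window shows 15, and RPS26 has no C at its annotated start. With the tract defined as a C at the start followed by at least 4 bases that are C or T, searched at the start on the gene's strand only, 46 of the 62 members with a listed start held it (74.2%), against 771 of 9943 genes tested (7.75%). The 15 other members have no listed start. Mitochondrial ribosomal protein genes (5 of 67, 7.46%) and proteasome genes (1 of 31, 3.23%) stood near the share of all genes. A tract is a match of letters at an annotated start and was not measured in these cells.

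In TPM, the levels of the ribosomal protein mRNAs differed 23.9 times between the highest and the lowest member. RPS2, a small-subunit protein at the mRNA entry channel, was highest at a mean of 3871 TPM over the 12 samples. It was followed by RPS3, which lies beside it and also has a DNA-repair activity, at 2577 TPM, RPLP0 at 2576 TPM, RPL37A at 2529 TPM and RPS18 at 2431 TPM. The lowest were RPL22 at 162 TPM, RPS26 at 350 TPM and RPL24 at 484 TPM, against a median of 1259 TPM. All 77 members passed the minimum of a mean of 1 TPM. The order of the members was alike in all samples, with Pearson's r across the 77 members of 0.938 to 0.994 between samples of a group and 0.929 to 0.990 between samples of different groups, where members are not independent of each other.

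The level of the whole set moved from sample to sample. The 77 members held 9.27%, 8.5% and 10.3% of all TPM in scramble replicates 1 to 3, and 10.5%, 10.8% and 12.8% with Pink1 siRNA. They held 10.9%, 7.05% and 9.19% with Nrf2 siRNA, and 9.05%, 11.2% and 15.8% with the double siRNA. In this sum all 3 Pink1 siRNA samples were thus above all 3 scramble samples, and the Nrf2 siRNA samples lay on both sides of them. The double siRNA samples ran from within the scramble range to the highest of all. By the mean log2 level of the members, the Pink1 and scramble groups overlapped. Pink1 siRNA replicate 1 was 0.149 above the scramble mean, and scramble replicate 3 was 0.153 above it. The group means were 9.36 ± 0.908% (SD, n = 3), 11.4 ± 1.25%, 9.04 ± 1.92% and 12 ± 3.43%. In RNA of whole cultures, fewer cells that express a gene and less of its RNA per cell cannot be told apart.

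The members moved mostly as a block. Of the 77, the number above their own scramble mean was 26, 2 and 75 in the scramble replicates themselves, 66, 68 and 75 with Pink1 siRNA, 76, 3 and 31 with Nrf2 siRNA, and 26, 68 and 75 with the double siRNA. Scramble replicates 2 and 3 thus lay on opposite sides of the scramble mean in nearly all members, as did Nrf2 siRNA replicates 1 and 2, whereas the counts of the Pink1 siRNA samples were close to each other. The median SD of a member between biological samples of a group was 0.295 on the log2 scale, which was 0.0966 once each sample's mean over the members was subtracted. Technical replicates differed by a median SD of 0.0388. Genes averaging 100 TPM or more (1020 genes) had a median within-group SD of 0.233.

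**Figure D1:**
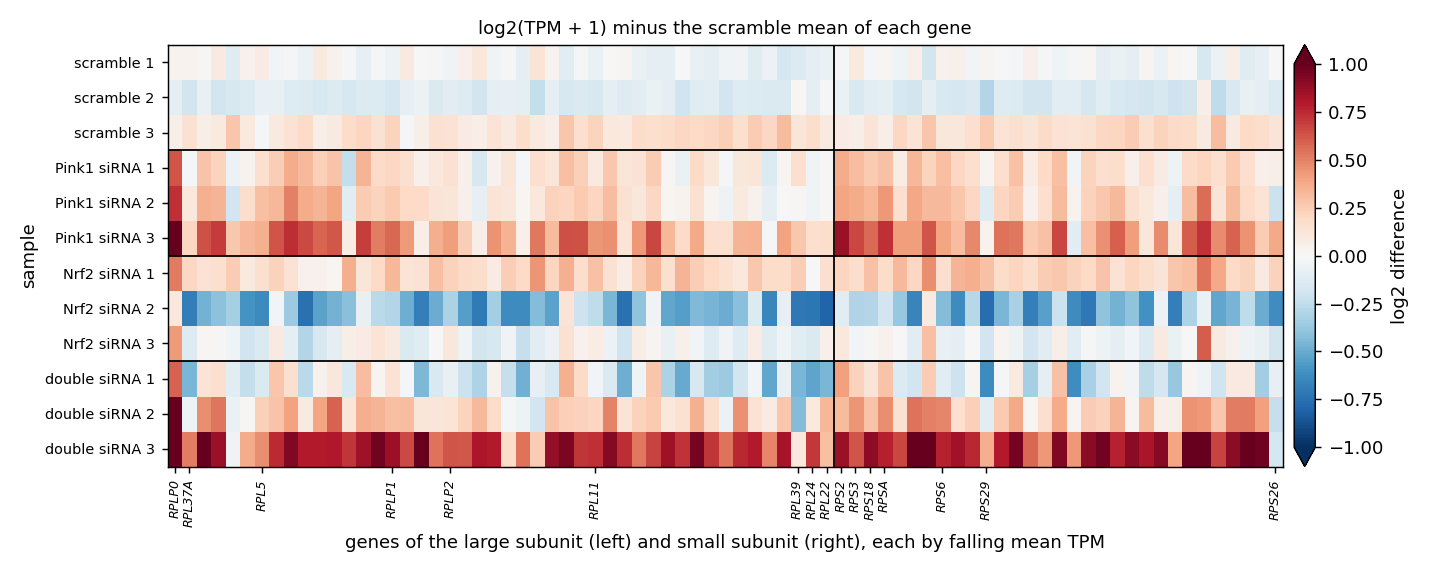
Each column is 1 of the 77 ribosomal protein genes, with a few labelled, and each row 1 of the 12 biological samples (technical replicates averaged). Color gives log2(TPM + 1) minus the scramble mean of that gene, with values beyond 1 shown at the end of the scale. Whole rows turn red or blue together: double siRNA replicate 3 has 75 of 77 members above the scramble mean and Nrf2 siRNA replicate 2 has 3.

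A single row of the table held a large and variable share of all TPM and moved against the ribosomal protein genes. This most abundant row, ENSG00000226958, has no entry in the name tables used here, so what it is was not determined. It held 34.6%, 36.4% and 32.4% of TPM in the scramble replicates, 35.5%, 32.3% and 24.9% with Pink1 siRNA, 29.9%, 38.6% and 32.2% with Nrf2 siRNA, and 41.4%, 29.4% and 15.5% with the double siRNA. The sample with the lowest share, double siRNA replicate 3, had the highest ribosomal protein level, and Nrf2 siRNA replicate 2, with the second highest share, had the lowest. Because TPM is scaled to a fixed total, a sample in which 1 row takes less leaves more for every other gene. Of the TPM outside this row, the members held 14.2%, 13.3% and 15.2% with scramble, 16.3%, 16% and 17.0% with Pink1 siRNA, 15.5%, 11.5% and 13.6% with Nrf2 siRNA, and 15.4%, 15.9% and 18.7% with the double siRNA. In this sum all Pink1 siRNA and all double siRNA samples were above all scramble samples, and the Nrf2 siRNA samples again lay on both sides. By the mean log2 level of the members outside the row, the double siRNA and scramble groups overlapped. Double siRNA replicate 1 was 0.0601 above the scramble mean there, and scramble replicate 3 was 0.109 above it.

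**Figure D2:**
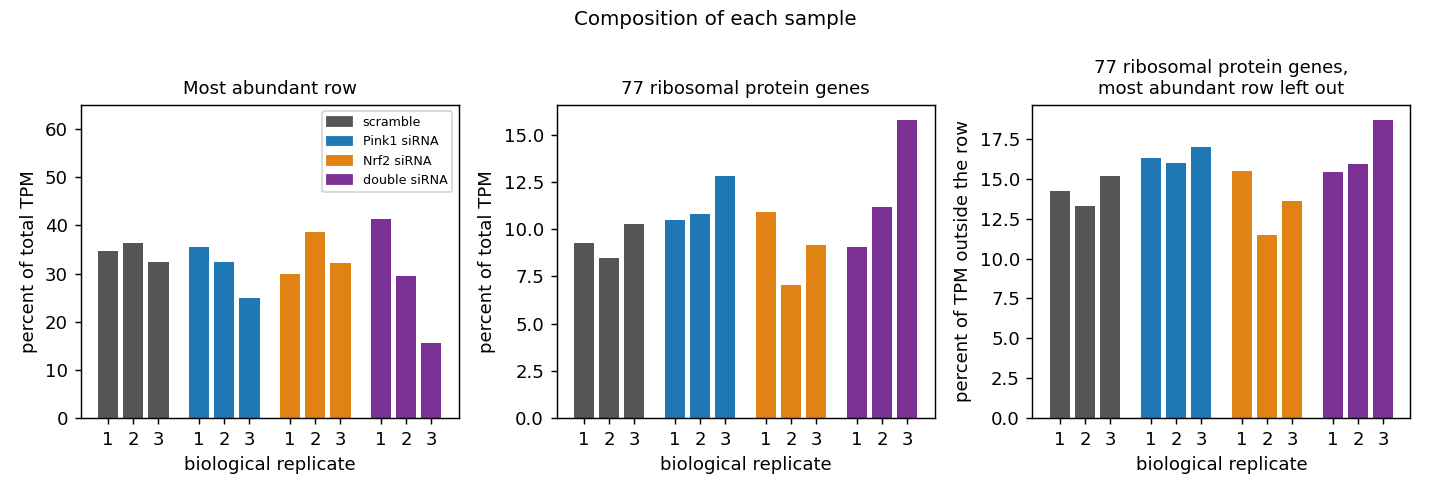
Bars show each of the 12 biological samples, colored by siRNA group: the percent of total TPM held by the most abundant row (left), by the 77 ribosomal protein genes (middle), and by the same genes within the TPM outside that row (right). The row's share runs from 15.5% to 41.4%, and with it left out the 3 double siRNA samples, at 15.4% to 18.7%, all lie above the 3 scramble samples at 13.3% to 15.2%. By the mean log2 level of the members, not drawn here, these groups overlap.

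Across the 12 samples, the mean log2 level of the members had a Pearson's r of -0.907 and a Spearman's rho of -0.902 with the share of the most abundant row. These are descriptions over samples of 4 groups whose values share 1 fixed total, and no p is given. Without double siRNA replicates 3 and 1, the 2 samples farthest from the median share, r was -0.874. With each group's mean subtracted, r was -0.936. On the scale per 1000000 TPM outside the row, r was -0.719 over 12 samples, -0.735 without the same 2 samples and -0.757 with group means subtracted, so the inverse relation was smaller there and still present. For the mitochondrial ribosomal protein genes, which encode the separate ribosome of mitochondria, r was -0.808 as deposited, -0.409 without those 2 samples and -0.124 outside the row. With group means subtracted it was -0.977 as deposited and -0.726 outside the row, close to the members' values of Pearson's r. Spearman's rho was not close outside the row with group means subtracted, at -0.427 against -0.881 for the members. For the proteasome genes, which encode the main protein-degrading complex, r was -0.704 as deposited, -0.155 without those 2 samples and 0.134 outside the row. With group means subtracted it was -0.973 as deposited and -0.426 outside the row (Spearman's rho 0.035). For the 17 translation factors and other known TOP mRNAs, r was -0.811 as deposited, -0.776 without those 2 samples and -0.498 outside the row. With group means subtracted it was -0.927 as deposited and -0.58 outside the row (Spearman's rho -0.608). Within groups the relation as deposited was thus of like size in all these sets, and no difference between the sets was tested.

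Gene by gene, all 77 members had a negative r with the row's share, with a median of -0.849, and 53 of them were below -0.8 (68.8%). Among the 13733 other genes tested the median was -0.277, with 74.2% below 0 and 4.13% below -0.8. Outside the row, 75 members were below 0 with a median of -0.632, whereas the other genes had a median of 0.158 and 33.3% below 0. RPL37, a large-subunit protein, had the most negative r as deposited (-0.944), and RPS15, a protein of the small-subunit head, followed at -0.943. The weakest were RPS26 at -0.264 and RPL41, a very short large-subunit peptide, at -0.419, and these were the 2 members above 0 outside the row (0.271 and 0.307). RPL37, RPS15 and RPL41 were chosen after their values were seen.

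**Figure D3:**
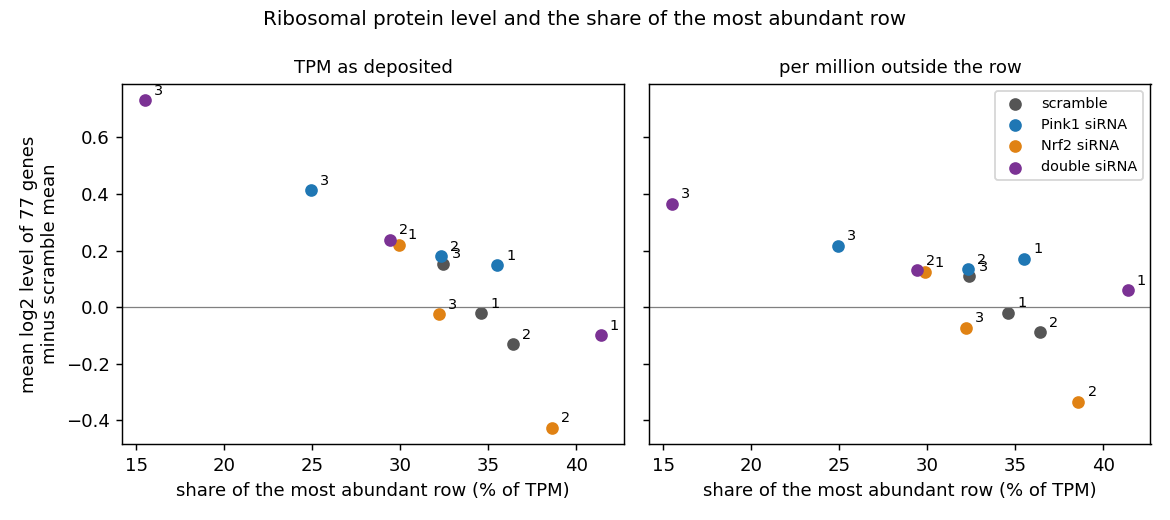
Each point is 1 biological sample, labelled with its replicate number. The horizontal axis is the share of the most abundant row in percent of TPM and the vertical axis the mean log2 level of the 77 genes minus the scramble mean, in TPM as deposited (left, r = -0.907) and per 1000000 TPM outside the row (right, r = -0.719). Points fall from double siRNA replicate 3 at the upper left to Nrf2 siRNA replicate 2 at the lower right.

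The first comparison asks how the ribosomal protein genes differed with Pink1 siRNA. Of the 77 members, 71 had a higher and 6 a lower mean log2 level than with scramble, with a median log2 difference of 0.25 (fits were made on log2(TPM + 1)). Over all 13810 genes tested the median was 0.022, and 7283 were higher. None of the members passed an adjusted p of 0.05 in limma with Benjamini-Hochberg adjustment, where 0.471% of all genes did, and 9 members had an unadjusted p under 0.05, near the 12.2% of all genes. The smallest adjusted p was 0.131. The 3 Pink1 samples lay above all 3 scramble samples in 33 members and below them in none, against 13.8% of all genes above and 11.2% below. Outside the most abundant row these counts were 36 above and 2 below, against 11.6% and 14.9% of all genes. As the row's share averaged 34.4 ± 1.98% with scramble and 30.9 ± 5.45% with Pink1 siRNA, both scales are given, and the part of the row in the difference was not tested beyond them. Pink1 siRNA replicate 1, whose row share was 35.5%, had members 0.149 above the scramble mean as deposited and 0.171 above it outside the row, on the log2 scale. Scramble replicate 3 was itself 0.153 above that mean as deposited and 0.109 above it outside the row. With the row removed and the other rows rescaled, the median was 0.177, and with the row's share as a covariate it was 0.117.

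Among the single members, RPLP0, RPS2 and RPL13A had the largest differences with Pink1 siRNA. RPS2 stood at 3071, 2957 and 3280 TPM with scramble and at 4017, 4065 and 5640 TPM with Pink1 siRNA, groups that do not overlap (log2 0.54, adjusted p 0.254, limma). RPL13A, a large-subunit protein also known for silencing inflammatory mRNAs after release from the ribosome, stood at 1532, 1416 and 1717 TPM with scramble and at 2002, 2194 and 2585 TPM with Pink1 siRNA (log2 0.54, adjusted p 0.308, limma). Here too every Pink1 sample was above every scramble sample, though the adjusted p did not pass. At the other end were the large-subunit members RPL31 with a log2 difference of -0.09, RPL35A with -0.08 and RPL7 with -0.06, and their groups overlapped as deposited. On the scale outside the most abundant row, RPL31 and RPL35A were the 2 members wholly below scramble, against 36 wholly above. RPL31 spanned 2217 to 2639 with scramble and 2066 to 2208 with Pink1 siRNA there, and RPL35A 944 to 1140 and 878 to 937. RPL7 overlapped on both scales. RPL27A was at 1665 ± 204 TPM with scramble and 2278 ± 293 TPM with Pink1 siRNA, without overlap (log2 0.45, adjusted p 0.518, limma).

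With Nrf2 siRNA the members lay, on the whole, slightly below scramble. Of 77, 20 were higher and 57 lower, with a median log2 difference of -0.10 (-0.0999), beside 0.016 over all genes tested. None was called by limma, where 0.333% of all genes were, and 0 members had an unadjusted p under 0.05, against 12.2% of all genes. One sample set this direction: without Nrf2 siRNA replicate 2 the median was 0.0882. In that sample the members averaged 0.427 below the scramble mean as deposited and 0.334 below it outside the row, while Nrf2 siRNA replicate 1 was 0.221 above. RPLP0 was the 1 member whose 3 Nrf2 samples all lay above the 3 scramble samples, and none lay below, against 13.6% and 9.26% of all genes. Among the largest differences were those of RPLP0 (log2 0.35) and RPS19 (0.29), and the lowest were those of RPL27A (-0.33), RPL9 (-0.29) and RPL24 (-0.29). RPS19 is a small-subunit protein mutated in Diamond-Blackfan anemia.

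With the double siRNA, 1 member was called and most others had higher means. Of 77, 70 were higher and 7 lower, with a median log2 difference of 0.305, beside 0.0059 over all genes tested. The called member was RPLP0, against 0.753% of all genes called and 0.471% called higher, and 17 members had an unadjusted p under 0.05, against 14.2% of all genes. The 3 double siRNA samples lay above all 3 scramble samples in 15 members and below in none, against 10.2% and 7.82% of all genes. Outside the row the counts were 27 above and 2 below, against 7.19% and 14.7%. The size of the shift rested on single samples, since the median was 0.0599 without double siRNA replicate 3, which had the row's lowest share, and 0.497 without replicate 1, which had the highest share. In replicate 3 the members averaged 0.732 above the scramble mean as deposited and 0.366 above it outside the row. In replicate 1 they averaged 0.10 below it as deposited and 0.0601 above it outside the row. The median was 0.200 with the row removed and 0.0759 with its share as a covariate in the fit.

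**Figure D4:**
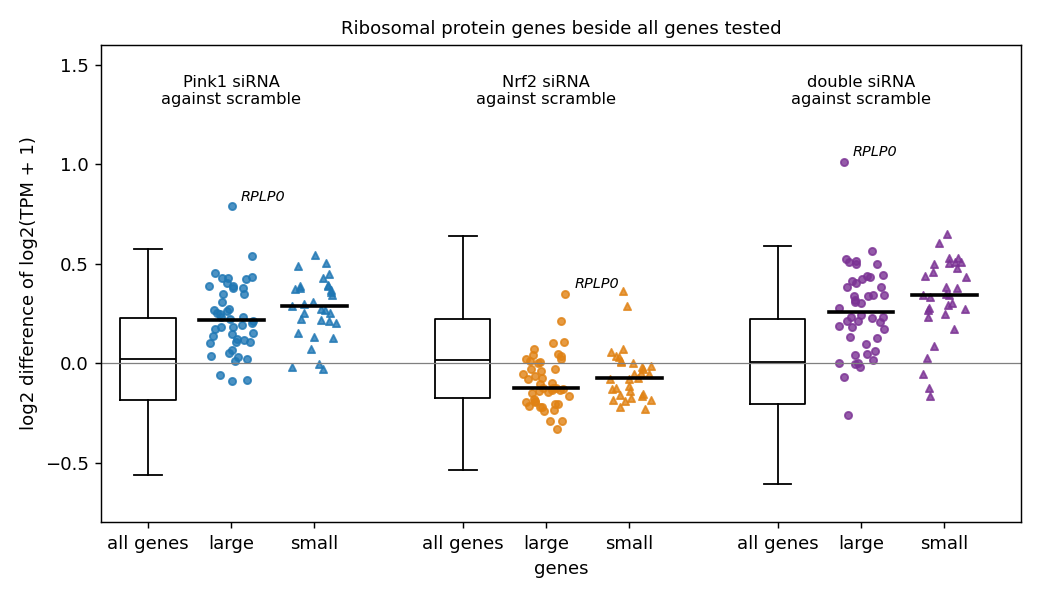
For each siRNA group against scramble, boxes show the median and quartiles of all 13810 genes tested, with whiskers at the 5th and 95th percentiles, and symbols show the log2 differences of the 46 large-subunit (circles) and 31 small-subunit (triangles) genes, with bars at their medians. The members' medians lie above 0 with Pink1 siRNA and the double siRNA and below 0 with Nrf2 siRNA, and RPLP0 lies highest with Pink1 siRNA and with the double siRNA.

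The P-stalk is the flexible arm of the large subunit that recruits and activates the translation factors, and RPLP0 is its base, on which RPLP1 and RPLP2 sit as dimers. RPLP0 was at 1729, 1589 and 1756 TPM with scramble and at 2547, 3384 and 4586 TPM with the double siRNA. It was at 2611, 2798 and 3403 TPM with Pink1 siRNA and at 2420, 1815 and 2270 TPM with Nrf2 siRNA. Every sample of each siRNA group was above every scramble sample, and the double and Pink1 groups overlapped. RPLP0 rose with the double siRNA by 1.01 ± 0.207 (SE) on the log2 scale, from 1691 ± 89.6 to 3506 ± 1025 TPM (SD, n = 3; adjusted p 0.0424, limma). With Pink1 siRNA the difference was 0.79 (2937 ± 414 TPM, adjusted p 0.131, limma) and with Nrf2 siRNA 0.35 (2168 ± 315 TPM, adjusted p 0.546, limma). The call was near its threshold. Leaving out any 1 of the 6 compared samples kept the log2 difference between 0.80 and 1.22 and the call in 1 case of 6, without double siRNA replicate 1 (adjusted p from 0.00972 to 0.199, limma). It was also lost with only the 2 compared groups in the fit (adjusted p 0.214, limma).

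Outside the most abundant row the RPLP0 groups separated more clearly. Per 1000000 of that remainder it stood at 2643, 2497 and 2598 with scramble, 3451, 2955 and 3350 with Nrf2 siRNA, 4046, 4136 and 4530 with Pink1 siRNA, and 4344, 4790 and 5429 with the double siRNA. In this order each group lay wholly above the one before it, except that the Pink1 and double groups overlapped. Refitted with the row removed, RPLP0 was called with Pink1 siRNA (log2 0.71, adjusted p 0.00672, limma) as with the double siRNA (log2 0.91, adjusted p 0.00144, limma), where 1.17% and 2.06% of all genes were called. Relative to the mean of all 77 members, a scaling that put the median of all genes at -0.191 and -0.240 in these comparisons, RPLP0 was still higher by 0.54 with Pink1 siRNA (adjusted p 0.0194, limma; 0.527% of all genes called) and by 0.72 with the double siRNA (1.96% called).

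The other stalk proteins differed less. RPLP1 was at 1294, 1199 and 1564 TPM with scramble and 1487, 1656 and 2431 TPM with the double siRNA, with 1 double sample inside the scramble range (log2 0.43, adjusted p 0.387, limma). RPLP2 was at 1226, 1172 and 1389 TPM with scramble and 1195, 1388 and 1952 TPM with the double siRNA, with 2 double samples inside the range (log2 0.23, adjusted p 0.651, limma). With Pink1 siRNA their log2 differences were 0.35 and 0.23, and with Nrf2 siRNA 0.042 and 0.011. On the scale outside the most abundant row, RPLP1 spanned 1884 to 2314 with scramble. It spanned 2379 to 2657 with Pink1 siRNA and 2344 to 2878 with the double siRNA there, both without overlap with scramble. RPLP2 still overlapped, at 1841 to 2055 with scramble, 2023 to 2239 with Pink1 siRNA and 1965 to 2311 with the double siRNA. RPLP0 has pseudogene copies, and how reads were divided between the copies was not tested, so its values are uncertain to that extent. The rows of 2 of them were higher in the same groups, by differing amounts. RPLP0P6 was at 56.4 ± 2.5 TPM with scramble, 103 ± 15.8 with Pink1 siRNA, 77.9 ± 12.4 with Nrf2 siRNA and 129 ± 33.8 with the double siRNA, and rose in the last (log2 1.15, adjusted p 0.0192, limma). RPLP0P9 was at 98.8, 107 and 129 TPM with scramble and at 228, 420 and 1242 TPM with the double siRNA (log2 2.14, adjusted p 0.0528, limma). In all, the rows of 589 ribosomal protein pseudogenes held 4.98 ± 0.178%, 5.04 ± 0.190%, 4.96 ± 0.0864% and 5.31 ± 0.442% of the summed TPM of members and pseudogenes in the scramble, Pink1, Nrf2 and double groups.

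**Figure D5:**
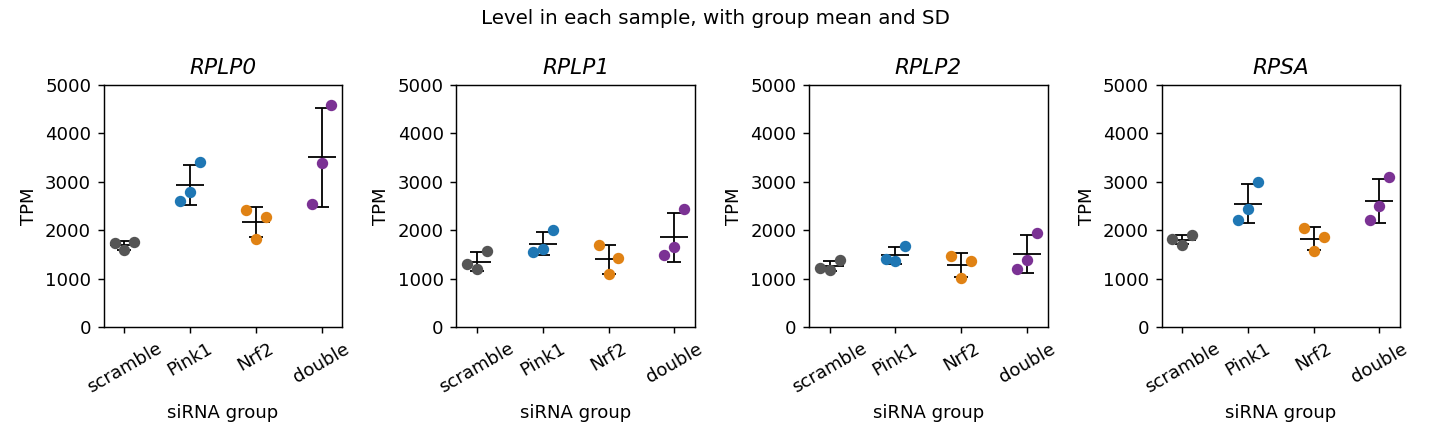
TPM of the 3 P-stalk genes and RPSA in each of the 12 samples (points) with the group mean and SD (lines, n = 3 per group). RPLP0 lies highest with the double siRNA at 3506 ± 1025 TPM and lowest with scramble at 1691 ± 89.6 TPM, while the groups of RPLP1 and RPLP2 overlap.

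Among the small-subunit proteins, RPSA, which also exists as a laminin receptor, followed the pattern of RPLP0 in the Pink1 and double groups but not in the Nrf2 group. RPSA was at 1828, 1699 and 1893 TPM with scramble, 2216, 2442 and 2998 TPM with Pink1 siRNA, and 2203, 2493 and 3094 TPM with the double siRNA. With Nrf2 siRNA it was at 2046, 1577 and 1863 TPM, around the scramble values. The Pink1 and double samples all lay above the scramble samples, but the adjusted p was 0.261 (log2 0.49) and 0.206 (log2 0.51) in limma. Outside the most abundant row the scramble samples spanned 2669 to 2801 per 1000000, the Pink1 samples 3434 to 3991 and the double samples 3530 to 3757. With the row removed the fit called RPSA in both (log2 0.41 and 0.41, adjusted p 0.0413 and 0.0354, limma), where 1.17% and 2.06% of all genes were called. With Nrf2 siRNA the log2 difference was 0.011, and it turned to -0.0067 with the row removed.

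RPS3 stood at 2195 ± 197 TPM with scramble, 3006 ± 413 with Pink1 siRNA, 2134 ± 347 with Nrf2 siRNA and 2973 ± 411 with the double siRNA, with the Pink1 and double samples above all scramble samples (adjusted p 0.312 and 0.278, limma). RPS6, the substrate of the S6 kinases downstream of mTORC1, stood at 1588 ± 150, 2005 ± 71.4, 1485 ± 304 and 2131 ± 620 TPM in the same order, and of these groups only Pink1 was free of overlap with scramble. RPS19 and RPS9 had the next largest differences after RPLP0 with the double siRNA, at log2 0.65 and 0.60 (adjusted p 0.223 and 0.270, limma). RPS19 was at 1244, 1320 and 1705 TPM with scramble and 1681, 2000 and 3193 TPM with the double siRNA, so 1 double sample lay within the scramble range. RPS9 was at 435, 451 and 543 TPM with scramble and 505, 681 and 1087 TPM with the double siRNA, again with 1 sample inside. On the scale outside the most abundant row, both were among the 27 members wholly above scramble with the double siRNA, against 2 wholly below. RPS19 spanned 1901 to 2523 with scramble and 2831 to 3780 with the double siRNA there, and RPS9 665 to 803 and 862 to 1287. RPS18 and RPL37A, both among the 5 most abundant, had log2 differences of 0.44 and 0.00080 with the double siRNA.

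RPL5 and RPL11 bind MDM2 with the ribosomal RNA of the central protuberance when ribosome assembly is disturbed and so stabilize p53. RPL5 was at 2003, 1793 and 1872 TPM with scramble, 2114, 2324 and 2412 TPM with Pink1 siRNA, and 1708, 2228 and 2600 TPM with the double siRNA. RPL11 was at 843, 791 and 1031 TPM with scramble, 945, 1023 and 1197 TPM with Pink1 siRNA, and 864, 1024 and 1465 TPM with the double siRNA. The Pink1 samples of RPL5 were all above scramble, whereas those of RPL11 overlapped, and neither was called (adjusted p 0.627 and 0.667, limma).

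A few members went the other way with the double siRNA. RPL39, a short protein lining the exit tunnel, was at 538, 599 and 646 TPM with scramble and 432, 439 and 639 TPM with the double siRNA (log2 -0.26, adjusted p 0.658, limma). RPS26, which sits at the mRNA exit, was at 363, 330 and 396 TPM with scramble and 342, 308 and 320 TPM with the double siRNA (log2 -0.16, adjusted p 0.778, limma). RPS29 was at 1565, 1251 and 1840 TPM with scramble and 991, 1428 and 1967 TPM with the double siRNA (log2 -0.12, adjusted p 0.889, limma). All 3 overlapped scramble as deposited. On the scale outside the most abundant row, RPL39 lay wholly below scramble, at 621 to 757 against 822 to 956, and RPS26 and RPS29 still overlapped. RPL39 fell by 0.55 relative to the mean of the members (adjusted p 0.0493, limma), the 1 call beside RPLP0 on that scale in this comparison. In double siRNA replicate 3, where 75 of 77 members were above the scramble mean, RPS26 read 320 TPM against a scramble mean of 363 TPM.

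The siRNA groups were also compared with each other, and every comparison above shares its scramble samples with the others. With the double siRNA against Pink1 siRNA the members' median log2 difference was 0.051, 0 members were called in limma against 0.0434% of all genes, 0 had an unadjusted p under 0.05 against 5.80% of all genes, and 0 were free of overlap against 3.18% of all genes higher and 5.68% lower. This median turned to -0.165 without double siRNA replicate 3 and to -0.0214 with the row's share as a covariate. Against Nrf2 siRNA the double siRNA had 75 members higher and 2 lower with a median of 0.384, 0 called against 0.0145% of all genes, 21 at an unadjusted p under 0.05 against 6.95%, and 12 wholly higher and 0 wholly lower, against 3.83% and 5.66% of all genes. Pink1 against Nrf2 siRNA had 76 members higher and 1 lower with a median of 0.321, 0 called against 0.992% of all genes, 13 at an unadjusted p under 0.05 against 11.2%, and 24 wholly higher and 0 wholly lower, against 9.41% and 9.42%. Outside the row that last count was 33 against 8.50%, and with the row removed 6 members were called: RPL13A, RPL27A, RPL4, RPL7A, RPS3 and RPSA, where 2.11% of all genes were. RPL27A, a large-subunit protein, had the largest difference there as deposited, 2278 ± 293 TPM with Pink1 siRNA against 1349 ± 361 TPM with Nrf2 siRNA (log2 0.78, adjusted p 0.224, limma).

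The interaction asks whether the double siRNA differed from the sum of both single siRNA effects. The members' median interaction was 0.125 on the log2 scale, 0 were called by limma against 0 of all genes, and 0 had an unadjusted p under 0.05 against 5.45% of all genes. RPLP0 had an interaction of -0.13 (adjusted p 0.967, limma). Without double siRNA replicate 3 the members' median was -0.0962.

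Both subunits gave similar values. With Pink1 siRNA the median log2 difference was 0.216 over the 46 large-subunit and 0.284 over the 31 small-subunit genes, with Nrf2 siRNA -0.123 and -0.0745, and with the double siRNA 0.258 and 0.344. The 46 members with a TOP tract at their annotated start had medians of 0.240, -0.077 and 0.304 in the same comparisons, and the 16 without had 0.216, -0.127 and 0.327. RPL39 and RPS26, shown above with the longest tract and with none, both lay below scramble with the double siRNA.

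The members with the smallest spread within groups were RPL8 (SD 0.186 on the log2 scale), RPS3 (0.195) and RPSA (0.196), and those with the largest were RPL26 (0.431), RPL36A (0.402) and RPS15A (0.397). RPL26 read 1053, 1567 and 2929 TPM in the 3 double siRNA samples and 1440, 1383 and 1503 TPM in the scramble samples. RPL8 read 2005, 2014 and 2785 TPM and 1629, 1577 and 1769 TPM in the same samples, so its double group was free of overlap with scramble (adjusted p 0.265, limma) where that of RPL26 was not. Deviations of the members were also related to GC content, and this relation differed between samples. A deviation here is a member's log2 level minus the sample's member mean, less that member's average of this value over the 12 samples. Across the 77 members, its r with transcript GC content was -0.62, -0.52 and -0.36 in the scramble samples and -0.11, -0.14 and 0.50 with Pink1 siRNA. It was -0.48, 0.64 and -0.10 with Nrf2 siRNA, and 0.61, -0.029 and 0.14 with the double siRNA. These are descriptions across members, which are not independent, and the part of GC content in the differences was not tested.

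Other genes of the translation apparatus are given from lists, for comparison of size. The 17 translation factors and other known TOP mRNAs had medians of 0.335, -0.115 and 0.368 against scramble with Pink1, Nrf2 and double siRNA. None of them was called against scramble in limma (6, 1 and 7 at an unadjusted p under 0.05, against 12.2%, 12.2% and 14.2% of all genes). With the most abundant row removed, EEF2 and EEF1G, a subunit of the elongation factor complex, were called higher with Pink1 siRNA. Both of these, EEF1A1 and PABPC1, the poly(A)-binding protein, were called higher with the double siRNA. In that fit 1.17% and 2.06% of all genes were called in these comparisons. EEF1A1, the elongation factor that delivers aminoacyl-tRNA, was at 9354 ± 1052, 14360 ± 1265, 8541 ± 1651 and 15220 ± 4273 TPM in the scramble, Pink1, Nrf2 and double groups. EEF2, the translocation factor, was at 707 ± 76.0, 1168 ± 166, 631 ± 38.8 and 1129 ± 50.8 TPM, with an adjusted p of 0.0501 and 0.0528 with Pink1 and double siRNA against scramble and a call for Pink1 against Nrf2 siRNA (log2 0.88, adjusted p 0.013, limma). FAU, a ribosomal protein made as a fusion with a ubiquitin-like protein, differed by log2 0.14 with the double siRNA and was not called (adjusted p 0.797, limma).

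The paralogues outside the symbol rule lay opposite the members with Pink1 and double siRNA, but on the same side with Nrf2 siRNA. In the Nrf2 comparison 5 were lower and 1 higher, with a median of -0.222 beside the members' -0.0999. All 6 found (RPL7L1, RPL22L1, RPL26L1, RPL36AL, RPL39L and RPS27L) had lower means than scramble with Pink1 siRNA and with the double siRNA, with medians of -0.254 and -0.308, and none was called in limma (1 and 2 at an unadjusted p under 0.05, against 12.2% and 14.2% of all genes). RPL22L1, the paralogue of RPL22, was at 148 ± 14.6 TPM with scramble and 83.1 ± 36.7 TPM with the double siRNA (log2 -0.94, adjusted p 0.157, limma). It was called lower with the row removed (log2 -1.04, adjusted p 0.0344, limma), where 2.06% of all genes were called. RPL22 itself was at 161 ± 9.01 and 173 ± 48.1 TPM. RPS27L was at 238 ± 35.6 and 164 ± 42.9 TPM in the same groups. RPL3L and RPL10L are not analysed here.

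The 134 pseudogenes of cytosolic ribosomal proteins that were tested had medians of 0.179, -0.0228 and 0.259 with Pink1, Nrf2 and double siRNA. With the most abundant row removed, their medians with Pink1 and double siRNA were 0.115 and 0.193, over 159 tested. How reads were divided between pseudogenes and members was not tested. The 5 lists that follow did not share the members' positive medians with Pink1 and double siRNA at a like size. The 39 ribosome biogenesis genes, among them the nucleolar proteins NPM1 and NCL, had medians of 0.0028, -0.041 and 0.014 with Pink1, Nrf2 and double siRNA, and the 12 mTORC1, LARP1 and 4E-BP regulators had 0.038, 0.045 and 0.051. The 9 snoRNA host genes, several of which are themselves TOP RNAs, had -0.204, -0.356 and -0.211. The 76 mitochondrial ribosomal protein genes had -0.108, -0.196 and -0.0907, and the 36 proteasome genes -0.183, -0.153 and -0.0982. None of the genes of these 5 lists was called against scramble in limma as deposited. With Nrf2 siRNA the medians of the snoRNA hosts, mitochondrial ribosomal genes and proteasome genes lay further below 0 than that of the members. With the most abundant row removed, the medians with Pink1 and double siRNA were -0.182 and -0.195 for the mitochondrial ribosomal genes and -0.256 and -0.203 for the proteasome genes, beside the members' 0.177 and 0.200. In that fit 1.17% and 2.06% of all genes were called with Pink1 and double siRNA. The proteasome subunits PSMA3 (log2 -0.75 and -0.72) and PSMB2 (-0.56 and -0.61) were called lower in both comparisons. Of the mitochondrial ribosome, MRPL18 and MRPL47 were called lower with Pink1 siRNA, and MRPS24 and MRPL37 with the double siRNA. MRPL37 was also called lower with Nrf2 siRNA, where 0.889% of all genes were called, and TSC2, an inhibitor of mTORC1 signaling, was called higher with the double siRNA. At an unadjusted p under 0.05 there were 0, 1 and 1 biogenesis genes, 2 in each comparison of the regulators, 0 of the snoRNA hosts, 5, 4 and 8 mitochondrial ribosomal genes and 6, 4 and 5 proteasome genes, against 12.2%, 12.2% and 14.2% of all genes.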

How the data were processed

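Per the labels' protocols, stranded mRNA libraries were sequenced as read pairs, and the submitters' processing notes name STAR, RSEM, edgeR, GRCh37 and hg19, without versions or roles. The authors deposited a single table of TPM for 24053 Ensembl identifiers in 24 columns, each summing to 999678 to 999945; 19325 identifiers have a symbol in the name table. TPM keeps no depth, so no counting interval is given. Technical pairs were averaged to 12 samples, 13810 genes averaging 1 TPM or more were kept, and log2(TPM + 1) was fitted over the 4 groups with limma-trend (limma 3.58.1, R 4.3.3, two-sided, Benjamini-Hochberg over all genes tested, called under 0.05). The pseudocount of 1 understates changes of low genes. 3 against 3 samples allow no permutation p under 0.1. The fit was tested on simulated data with noise drawn separately for each gene, so genes moving together, as the members did, were not simulated. Summaries used pandas 2.3.3 and numpy 2.4.6. Members and lists were chosen with earlier results of these data known. Named were fixed members (P-stalk, RPSA, RPS2, RPS3, RPS6, RPL5, RPL11), the 5 highest and 3 lowest, the 3 largest and smallest differences per comparison with scramble, called members, and the 3 with the largest and smallest spread; of other lists, called members or the 2 most abundant. BOP1 is not analysed here. Single values of 2 genes are not reported here. TOP windows come from RefSeq on GRCh38.p14; 21 single starts were checked against the gene annotation, with 0 differing. Alternatives changed pseudocount, filter, scaling, technical replicate, block, samples in the fit and left-out replicates; those chosen after seeing the data were scaling to the members' mean, the row's share as a covariate, and fits without the double siRNA samples or without the 2 extreme shares.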

Additional observations from a re-analysis of the deposited data

How the results depend on the processing

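The members' median stayed above 0 for Pink1 and double siRNA against scramble in each alternative run. Its size did not: with the most abundant row's share as a covariate it was 0.117 and 0.0759, in place of 0.25 and 0.305. Scaling to the members' own mean, which centers them by construction, left medians of 0.00242 for Pink1 siRNA against scramble and -0.00331 for Pink1 against Nrf2 siRNA. For double against Pink1 siRNA the median turned to -0.0214 with the covariate and -0.0218 without the 2 extreme shares. With Pink1 siRNA against scramble, where no member was called, 1 was called after median-of-ratios rescaling, with the compared groups alone, scaled to the members' mean and fitted without the double siRNA group (RPLP0 in each; 1.24%, 1.42%, 0.527% and 1.26% of all genes called), 2 with the most abundant row removed and 3 with its share as a covariate (1.17% and 1.93%). With Nrf2 siRNA the covariate gave 1 call (RPLP0; 1.32% of all genes called). With the double siRNA against scramble, where 1 member was called, 0 were called with a pseudocount of 0.1 or 5, no filter on low values, the compared groups alone, technical replicate 2 alone, or without the 2 samples with the extreme shares, with adjusted p for RPLP0 of 0.0517, 0.0512, 0.167, 0.214, 0.0754 and 0.117 (limma). In that comparison 2 were called after median-of-ratios rescaling, with the row removed, scaled to the members' mean and with the covariate, where 2.43%, 2.06%, 1.96% and 2.31% of all genes were, a share close to that of the members. Double against Nrf2 siRNA gave 1 call with the covariate (0.0507% of all genes), and Pink1 against Nrf2 siRNA gave 2 after median-of-ratios rescaling, 6 with the row removed, 2 scaled to the members' mean and 9 with the covariate (2.15%, 2.11%, 1.87% and 2.37% of all genes). The covariate moves with the groups, and the cause of these changes was not tested. Leaving out single samples gave 0 to 1 calls for the double siRNA against scramble, 0 in the other comparisons, and medians of -0.25 to 0.0882 for Nrf2 siRNA against scramble and -0.165 to 0.241 for double against Pink1 siRNA.

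RPSA differed by close to 0 in 2 comparisons and turned sign there: with Nrf2 siRNA to -0.0146 after median-of-ratios rescaling, -0.00666 with the row removed and -0.0108 with the covariate, and from -0.0745 to 0.113 when samples were left out; with double against Pink1 siRNA to -0.00878 with the row removed, -0.0199 scaled to the members' mean, -0.0299 with the covariate and -0.0218 without the 2 extreme shares, and from -0.111 to 0.144 when samples were left out. The correlation with the row's share was -0.719 on the scale outside the row. Same-numbered samples had small correlations of deviations (1 of 18 pairs over 0.1, range -0.085 to 0.11), within the -0.13 to 0.17 of other-numbered pairs. Between scramble and Pink1 siRNA, however, same-numbered pairs (0.047 to 0.074) lay above other-numbered ones (-0.076 to 0.01). Whether same-numbered samples shared a batch was not tested beyond this. With the replicate block the double siRNA against scramble still gave 1 call, RPLP0 at 1.01 (adjusted p 0.037, limma). The depth of the libraries is unknown, and 3 samples a group limit what can be called.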
